A study of Mus musculus with 14 samples.

Results

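The genes described here make and load major histocompatibility complex (MHC) class I, the surface molecule that shows peptides from inside a cell to CD8 T cells. The 9 members are the class I heavy chains H2-K1 and H2-D1, their light chain B2m, the transporter subunits Tap1 and Tap2, the loading factor Tapbp, and the immunoproteasome subunits Psmb8, Psmb9 and Psmb10. They were named by symbol for their known roles, with earlier results of these data known, and all 9 were among the 21969 genes tested. In mouse macrophages, proteasomes cut cytosolic proteins into peptides, the Tap1-Tap2 pump carries these into the endoplasmic reticulum, and tapasin (Tapbp) holds an empty class I molecule beside the pump until a peptide binds. Interferons are known to raise the transcription of every step, and they exchange catalytic subunits of the standard proteasome for Psmb8, Psmb9 and Psmb10. Class I is made by nearly all nucleated cells and is known to be low in the resting brain.

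Expression was measured on 14 one-colour oligonucleotide arrays in 4 groups. Arg1+ brain macrophages (n = 4) and Arg1- brain macrophages (n = 4) were taken 1 day after traumatic brain injury (TBI) by controlled cortical impact, in which a driven tip dents the brain surface. Blood monocytes came from mice 1 day after TBI (post-TBI, n = 3) and from normal mice with no treatment (n = 3). Every group was of the strain YARG, a mouse in which a fluorescent protein reports transcription of arginase-1 (Arg1), and all mice were males aged 12 to 16 weeks. The reporter allele is thus shared by all groups, the labels name no group of mice without it, and they do not say whether replicates are separate animals, so each p-value measures the spread between these samples, which may be in part technical. In sorted bulk samples, fewer cells of a type and less RNA per cell cannot be told apart.

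The sort matched its label: Arg1 itself averaged 6.41 in Arg1+ cells and 3.16 in Arg1- cells on the log2 scale used throughout, where 0 is the 75th percentile of an array (difference 3.25 ± 0.43 SE, limma adjusted p = 0.000526). The summed level of 8 macrophage and monocyte markers ran from 172 to 238 in Arg1+ cells, from 170 to 211 in Arg1- cells, from 182 to 255 in post-TBI monocytes and from 151 to 197 in normal monocytes, in multiples of the 75th percentile. The 75th percentile ran from 119.4 to 418.5 intensity units and 50.4% to 68.69% of spots were well above background. Every usable spot of the 9 genes was well above background and none was saturated. Replicate 4 of the post-TBI monocytes stood apart, with correlations of 0.937 and 0.960 with the rest of its group across genes, where replicates 1 and 3 correlated at 0.985. For many of the results that changed when it was left out, the value without it is given. This was not done for every such result, so a result given only with it need not be stable.

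Promoter sequences are shown first, because the members' known shared control by interferons and NF-kB is read through them. The windows span 250 bases before to 50 bases after the annotated start, are credited to RefSeq on build GRCm38.p6, and were available for 8 of the 9 members (H2-K1 with 2 starts, hence 9 windows). Both strands were searched for an interferon response core (GAAANNGAA), a STAT palindrome (TTCNNNGAA) and the NF-kB consensus, and the NF-kB matches in H2-K1 and H2-D1 overlap each other and read as matches on both strands. The capitals below mark every match. H2-K1 (chr17:34000298-34000597, minus strand) and H2-D1 (chr17:35262844-35263143, plus strand) are shown because both heavy chains hold the same 11-base run with NF-kB matches, between positions -111 and -101 in H2-K1 and between -171 and -161 in H2-D1. B2m (chr2:122147437-122147736, plus strand) is shown as the only member window with a match to the string GAAANNGAA, between -139 and -131. It also holds an NF-kB match between -126 and -117. Interferon elements with other letters were not searched for, so a window without this string may still hold one. Psmb8 (chr17:34197945-34198244, plus strand) is shown for its STAT palindrome between -97 and -89. Tap1 (chr17:34187306-34187605, plus strand) is shown because it shares 275 bases with the window of Psmb9, which is transcribed the other way from a start 226 bases off.
H2-K1: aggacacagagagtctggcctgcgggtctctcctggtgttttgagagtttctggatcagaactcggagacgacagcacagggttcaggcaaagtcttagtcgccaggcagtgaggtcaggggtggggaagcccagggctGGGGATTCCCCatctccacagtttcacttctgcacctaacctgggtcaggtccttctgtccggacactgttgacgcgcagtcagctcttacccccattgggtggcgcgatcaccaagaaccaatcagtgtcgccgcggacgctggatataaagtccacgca
H2-D1: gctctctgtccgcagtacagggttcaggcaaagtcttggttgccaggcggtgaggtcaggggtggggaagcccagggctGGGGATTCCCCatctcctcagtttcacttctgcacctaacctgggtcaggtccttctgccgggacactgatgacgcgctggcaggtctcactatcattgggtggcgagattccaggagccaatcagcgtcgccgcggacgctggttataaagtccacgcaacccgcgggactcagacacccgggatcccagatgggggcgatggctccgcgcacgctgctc
B2m: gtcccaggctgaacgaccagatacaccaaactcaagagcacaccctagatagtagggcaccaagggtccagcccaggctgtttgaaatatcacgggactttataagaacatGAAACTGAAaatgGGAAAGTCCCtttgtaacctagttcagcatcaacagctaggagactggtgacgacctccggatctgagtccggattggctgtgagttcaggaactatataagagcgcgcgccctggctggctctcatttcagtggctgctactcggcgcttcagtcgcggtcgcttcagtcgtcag
Psmb8: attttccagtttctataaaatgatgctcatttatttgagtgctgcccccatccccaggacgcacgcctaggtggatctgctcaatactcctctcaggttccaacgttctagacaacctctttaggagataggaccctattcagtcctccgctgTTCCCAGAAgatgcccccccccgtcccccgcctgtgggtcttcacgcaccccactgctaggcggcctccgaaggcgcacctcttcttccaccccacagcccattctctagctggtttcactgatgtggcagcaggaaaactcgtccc
Tap1: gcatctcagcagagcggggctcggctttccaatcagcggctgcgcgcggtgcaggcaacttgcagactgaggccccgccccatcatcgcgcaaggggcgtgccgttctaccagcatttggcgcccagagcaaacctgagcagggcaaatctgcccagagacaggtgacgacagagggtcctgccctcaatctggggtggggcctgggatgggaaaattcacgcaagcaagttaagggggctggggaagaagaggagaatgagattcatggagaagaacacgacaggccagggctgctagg

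Of all 32851 promoter windows in the table, 8.56% held the interferon core, 8.3% the STAT palindrome and 4.51% the NF-kB consensus. Among the 9 member windows the counts were 1, 1 and 4, where the 4 are both H2-K1 windows, H2-D1 and B2m. The Tap1, Psmb9, Tapbp and Psmb10 windows held none of these letters, which says only that the strings are not in those windows.

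The plot of class I genes by array gives every value behind the comparisons that follow. In Arg1+ against Arg1- cells, limma called 0 of the 9 genes at an adjusted p under 0.05, where 5.07% of all genes tested were called. At an unadjusted p under 0.05, 1 of 9 passed, against 17.6% of all genes. The median log2 difference of the 9 genes was -0.06, beside 0 for all genes, with 3 genes higher and 6 lower. The arrays of the groups did not overlap for 3 genes, B2m upward and Tap1 and Tap2 downward, where 14.9% of all genes had no overlap. All 4 comparisons were read from 1 fit, and post-TBI monocytes serve in 3 of them, so their values are not independent.

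**Figure D1:**
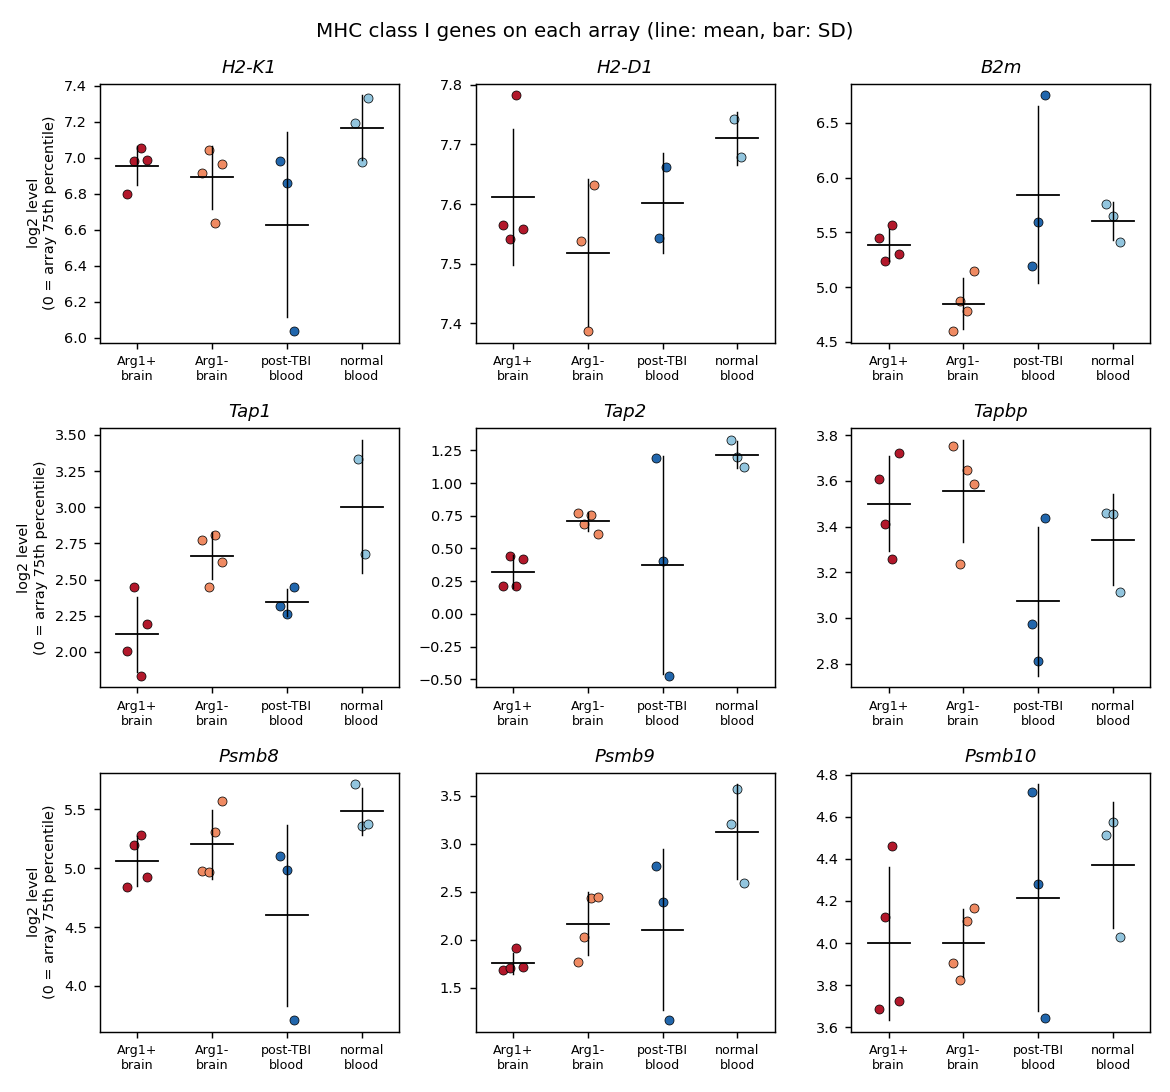
Log2 level of the 9 class I genes on each of the 14 arrays (0 is the array's 75th percentile), with Arg1+ and Arg1- brain macrophages, post-TBI monocytes and normal monocytes from left to right; lines are means and bars SDs. B2m arrays of Arg1+ cells lie above those of Arg1- cells and Tap1 and Tap2 arrays below, while in several panels the spread of the post-TBI group comes from its replicate 4.

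On the probes tested, both heavy chains differed between the brain groups by less than their errors. H2-K1 had log2 levels of 6.80, 6.98, 7.05 and 6.99 in Arg1+ cells and 6.91, 7.05, 6.64 and 6.97 in Arg1- cells. It had 6.99, 6.86 and 6.04 in post-TBI monocytes and 7.19, 6.98 and 7.33 in normal monocytes. All groups overlapped except that replicate 4 of the post-TBI monocytes lay below every other array. The Arg1+ minus Arg1- difference was 0.06 ± 0.22 (95% interval -0.39 to 0.52, adjusted p = 0.951).

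H2-D1 lay between 7.39 and 7.78 on the 11 arrays with a usable spot. The spot was set aside as an outlier on Arg1- replicate 1, post-TBI replicate 4 and normal replicate 4. Its difference between Arg1+ and Arg1- cells was 0.09 ± 0.21 (interval -0.36 to 0.55, adjusted p = 0.916, n = 4 and 3). The sign of both heavy chain differences depended on the scaling: after quantile normalization they were -0.45 for H2-K1 and -0.41 for H2-D1, and in the authors' deposited values -0.34 and -0.44, none of them called. Against post-TBI monocytes H2-D1 differed by 0.01 ± 0.24 in Arg1+ cells (adjusted p = 0.983), but by -0.49 in the authors' deposited values (adjusted p = 0.0334). A second, brighter H2-D1 probe had too few usable arrays to be tested. In the authors' values it ran from 16.52 to 16.74 in Arg1+ cells, 16.19 to 16.47 in Arg1- cells and 16.32 to 16.74 in post-TBI monocytes. Between the brain groups the sign for H2-D1 thus depended on the probe as well. The median of the 9 genes was -0.41 after quantile normalization, beside -0.01 for all genes. Class I heavy chains are near-identical to one another and to other H2 genes, so each H2 value is uncertain as to which gene's RNA it reads.

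B2m, the light chain that every class I heavy chain needs to reach the surface, had log2 levels of 5.45, 5.24, 5.57 and 5.30 in Arg1+ cells and 4.60, 4.87, 4.78 and 5.15 in Arg1- cells. Its levels were 5.19, 5.59 and 6.75 in post-TBI monocytes and 5.75, 5.65 and 5.41 in normal monocytes. The lowest Arg1+ array was above the highest Arg1- array, and post-TBI replicate 4 was the highest of all 14. Arg1+ cells differed from Arg1- cells by 0.54 ± 0.26 (interval -0.02 to 1.10, adjusted p = 0.308), and were higher on each of the 4 slides by 0.29 to 0.97. Without post-TBI replicate 4, which enters only through the shared spread, the same difference had an adjusted p of 0.0497.

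B2m was the member called in the main comparisons. It fell in Arg1- cells relative to post-TBI monocytes, by 0.99 ± 0.28 on the log2 scale, which is 0.502-fold (interval 0.330 to 0.763, adjusted p = 0.0134). The Arg1- arrays lay below all post-TBI arrays and they were lower on all 3 shared slides (differences of -2.15 to -0.32). That is 1 of 9 members called, where 33.4% of all genes were called and 16.4% of all genes were called lower, and 1 of 9 lower with no overlap, where 18.1% of all genes were. The size leaned on post-TBI replicate 4: without it the difference was -0.54 (adjusted p = 0.0454). With only these 2 groups in the fit the difference of -0.99 had an adjusted p of 0.0683. In Arg1+ cells B2m differed from post-TBI monocytes by -0.46 ± 0.28 (adjusted p = 0.227), -0.78 without post-TBI replicate 1 (adjusted p = 0.0347) and -0.00 without replicate 4 (adjusted p = 0.995).

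H2-K1 and B2m each have a probe printed at 10 places on the array, and its spots give a spread within an array: the median SD over its spots was 0.07 for H2-K1 and 0.08 for B2m. This H2-K1 probe, A_51_P198434, had log2 levels of 4.50, 4.58, 4.47 and 4.38 in Arg1+ cells and 4.46, 4.54, 4.62 and 4.65 in Arg1- cells, against 5.37, 5.49 and 5.30 in post-TBI monocytes. Every brain array was below every blood array, which included 5.61, 5.68 and 5.33 in normal monocytes, and post-TBI replicate 4 did not stand apart. It was lower by 0.90 ± 0.14 in Arg1+ cells (difference -0.90, adjusted p over probes 0.000137) and by 0.82 ± 0.14 in Arg1- cells (difference -0.82, adjusted p = 0.000452) than in post-TBI monocytes.

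The brightest probe, which stands for H2-K1 in this report, gave 0.33 ± 0.23 and 0.26 ± 0.23 and was not called, with the Arg1+ value turned to -0.20 after quantile normalization and to -0.26 in the authors' deposited values, and the remaining one, A_52_P474242, gave -0.34 ± 0.26 and -0.42 ± 0.27, not called. Between Arg1+ and Arg1- cells the 3 probes differed by 0.06 (brightest), -0.08 (10-spot) and 0.08, each less than its error. Without post-TBI replicate 4 the brightest probe gave 0.03 in Arg1+ cells and -0.03 in Arg1- cells, neither called. Whether H2-K1 RNA was lower in brain than in blood cells thus depended on the probe. For the brightest probe the value also depended on post-TBI replicate 4 and, in Arg1+ cells, on the scaling. Which RNAs each probe takes up was not tested. For B2m the 10-spot probe, A_51_P129006, gave -0.63 ± 0.24 in Arg1+ cells (adjusted p = 0.0421) and -1.09 ± 0.24 in Arg1- cells (adjusted p = 0.00220) relative to post-TBI monocytes. It gave 0.45 ± 0.22 for Arg1+ against Arg1- cells (adjusted p = 0.297), the sign of the single-spot probe. The members have 15 probes in all, of which 12 could be tested singly.

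**Figure D2:**
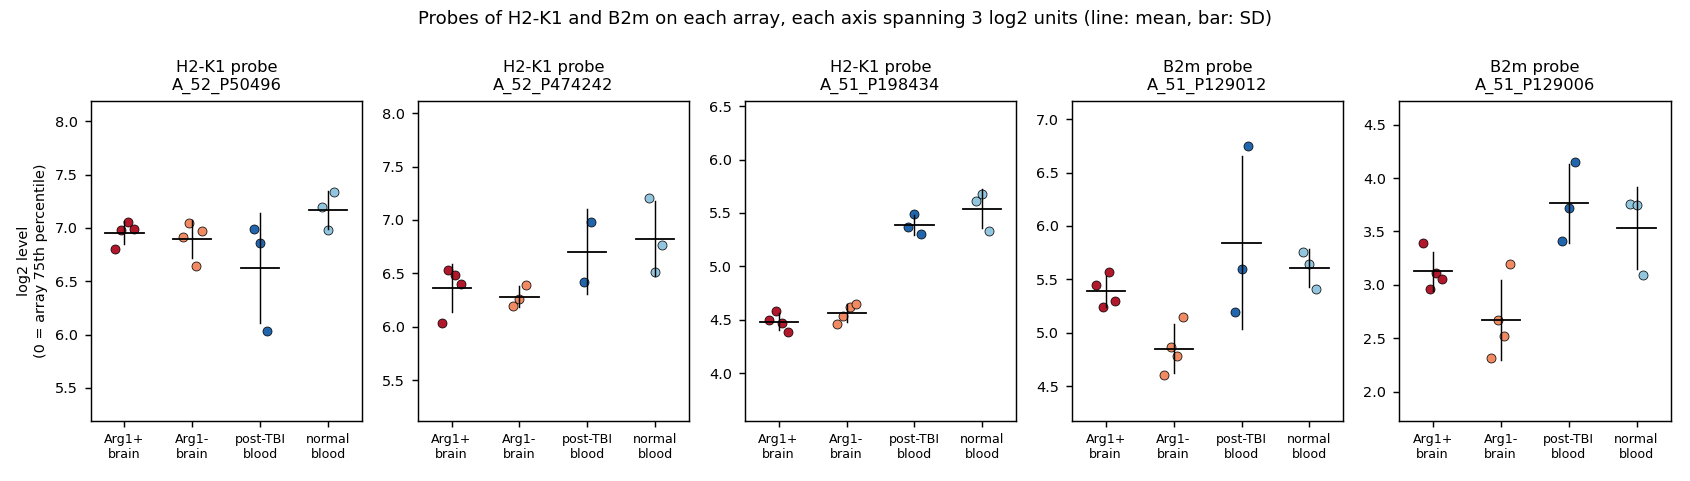
Log2 level of 3 probes of H2-K1 and 2 of B2m on each array, with Arg1+ and Arg1- brain macrophages left of post-TBI and normal monocytes; lines are means, bars SDs, and every axis spans the same range. The 10-spot H2-K1 probe A_51_P198434 separates brain arrays (4.38 to 4.65) from blood arrays (5.30 to 5.68), while the other H2-K1 probes overlap, and both B2m probes place Arg1- cells lowest on average.

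The peptide transporter was lower in Arg1+ cells without passing the test. Tap1 had log2 levels of 2.01, 2.45, 1.84 and 2.19 in Arg1+ cells and 2.78, 2.45, 2.81 and 2.62 in Arg1- cells. It had 2.32, 2.26 and 2.45 in post-TBI monocytes, and 3.33 and 2.68 on the 2 usable normal arrays. The brain groups met at 2.45 without crossing. The difference was -0.54 ± 0.17 (interval -0.92 to -0.17, adjusted p = 0.0958), and Arg1+ cells were lower on all 4 slides (differences of -0.94 to -0.26).

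Tap2, the other transporter subunit, had log2 levels of 0.21, 0.44, 0.21 and 0.42 in Arg1+ cells and 0.77, 0.69, 0.76 and 0.61 in Arg1- cells, which did not overlap. Its difference of -0.39 ± 0.25 was not called (interval -0.92 to 0.15, adjusted p = 0.497), and it was lower on all 4 slides. Tap2 spread most in the post-TBI monocytes, at 1.19, 0.41 and -0.47, against 1.33, 1.20 and 1.12 in normal monocytes. Without post-TBI replicate 4 the SE of the Arg1+ minus Arg1- difference was 0.15 (adjusted p = 0.159).

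Tapbp, which tethers class I to the transporter, lay between 3.26 and 3.72 in Arg1+ cells, 3.24 and 3.75 in Arg1- cells, 2.81 and 3.44 in post-TBI monocytes and 3.11 and 3.46 in normal monocytes. It differed by -0.06 ± 0.17 between Arg1+ and Arg1- cells (interval -0.43 to 0.31). Against post-TBI monocytes the differences were 0.43 ± 0.19 in Arg1+ cells (adjusted p = 0.0845) and 0.48 ± 0.19 in Arg1- cells (adjusted p = 0.0600). Without post-TBI replicate 4, whose Tapbp was the highest of its group, they were 0.61 (adjusted p = 0.0153) and 0.67 (adjusted p = 0.0120), both called. A second Tapbp probe had no usable spot and was not tested here. In the authors' deposited values it ran from 12.93 to 13.17 in Arg1+ cells, 13.25 to 13.39 in Arg1- cells and 13.30 to 13.71 in post-TBI monocytes. There Arg1+ cells lay below post-TBI monocytes, the opposite sign to the tested probe.

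**Figure D3:**
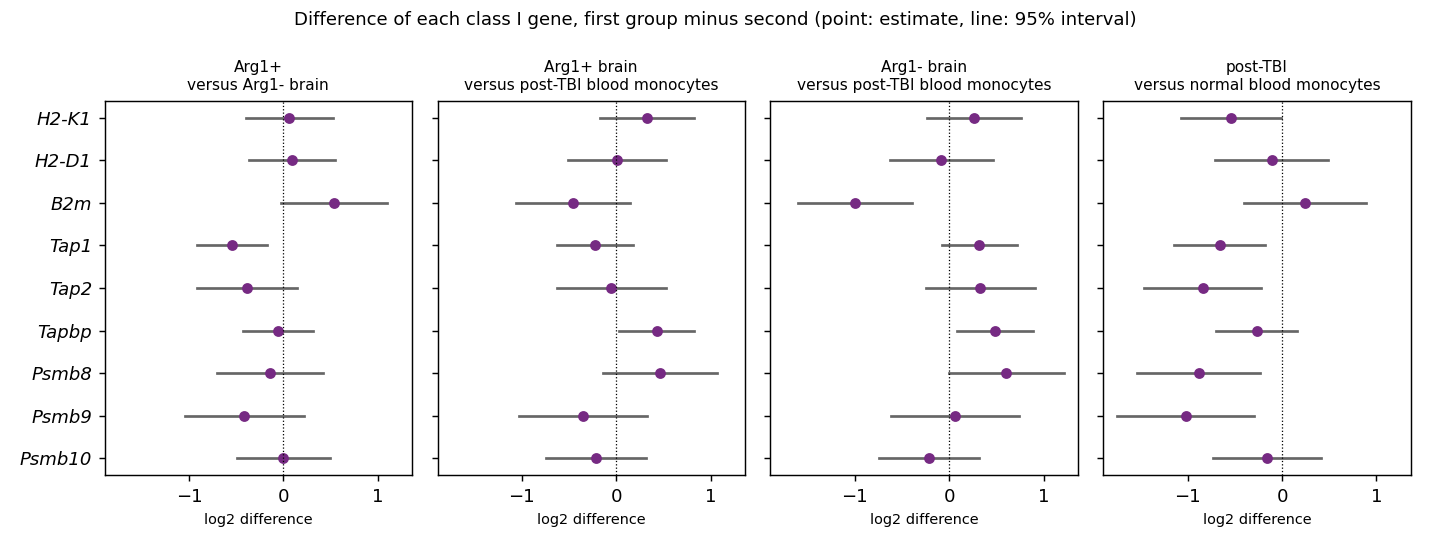
Log2 difference of each of the 9 genes in the 4 comparisons, first-named group minus second, as the limma estimate (point) with its 95% interval (line). B2m in Arg1- cells against post-TBI monocytes, at -0.99, is the point whose adjusted p is under 0.05. For H2-K1, Tap1, Tap2, Psmb8 and Psmb9 the post-TBI minus normal intervals lie below 0 before adjustment.

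No immunoproteasome subunit was called between the brain groups. Psmb8, the chymotrypsin-like subunit, had log2 levels of 4.84, 5.20, 5.28 and 4.93 in Arg1+ cells and 4.97, 4.96, 5.31 and 5.57 in Arg1- cells. Psmb9 had 1.68, 1.71, 1.92 and 1.72 in Arg1+ cells and 1.77, 2.02, 2.44 and 2.44 in Arg1- cells. On these probes both overlapped, with differences of -0.14 ± 0.26 (interval -0.70 to 0.42) and -0.41 ± 0.29 (interval -1.04 to 0.22, adjusted p = 0.552). A second Psmb8 probe had too few usable arrays to be tested, at 5.65 and 5.91 in Arg1+ cells and 5.63 and 5.78 in Arg1- cells. In the authors' deposited values this probe ran from 13.11 to 13.39 in Arg1+ cells and from 13.53 to 13.75 in Arg1- cells, without overlap. That difference was not tested. Psmb10 lay between 3.69 and 4.46 in Arg1+ cells and 3.83 and 4.17 in Arg1- cells, with a difference of -0.00 ± 0.23 (interval -0.50 to 0.49). Against post-TBI monocytes none of the 3 was called, and single post-TBI arrays moved the values. Without replicate 4, Psmb9 was lower in Arg1+ cells (-0.82, adjusted p = 0.0183, against -0.35 ± 0.32 with it), with -0.41 in Arg1- cells (adjusted p = 0.251). In Arg1- cells Psmb8 differed by 0.60 ± 0.29 (adjusted p = 0.121), by 0.86 without replicate 1 (adjusted p = 0.0403) and by 0.16 without replicate 4 (adjusted p = 0.614). Tap2 there differed by 0.33 ± 0.27 (adjusted p = 0.396), by 0.74 without replicate 1 (adjusted p = 0.0149) and by -0.09 without replicate 4 (adjusted p = 0.766).

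Each immunoproteasome subunit takes the place of a constitutive one in the same particle: Psmb8 of Psmb5, Psmb9 of Psmb6 and Psmb10 of Psmb7. The log2 level of the first minus the second was therefore taken on each array. Its own value compares different probes and has no meaning, but its difference between groups shows how unequally the subunits moved. Psmb8 minus Psmb5 was -0.24, 0.18, -0.27 and -0.05 in Arg1+ cells and 0.85, 0.71, 0.91 and 1.01 in Arg1- cells. It was 1.18, 1.41 and 1.54 in post-TBI monocytes and 2.31, 1.85 and 2.01 in normal monocytes. The 4 groups stood in that order with no overlap between any of them, post-TBI replicate 4 included.

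The Arg1+ minus Arg1- difference was -0.96 for Psmb8 minus Psmb5 and -0.94 for Psmb9 minus Psmb6. For both the exact permutation test, two-sided, gave p = 0.0286, the smallest that 4 against 4 arrays allow (0.0429 adjusted over the 3 pairs), and all 4 slides had the sign, with ranges of -1.24 to -0.73 and -1.05 to -0.75. Psmb9 minus Psmb6 averaged -2.75 ± 0.21 in Arg1+ cells, -1.82 ± 0.18 in Arg1- cells, -0.59 ± 0.35 in post-TBI monocytes and 0.44 ± 0.54 in normal monocytes (SD, n = 4, 4, 3 and 3). Psmb10 minus Psmb7 differed by -0.31 between Arg1+ and Arg1- cells (exact permutation p = 0.267), with 2 usable Arg1- arrays.

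Against post-TBI monocytes the 3 pair values were lower by 1.47, 2.17 and 1.17 in Arg1+ cells (differences -1.47, -2.17 and -1.17) and by 0.51, 1.23 and 0.85 in Arg1- cells (differences -0.51, -1.23 and -0.85). There 4 against 3 arrays cannot give an exact p under 0.0571, and Psmb10 minus Psmb7 had only 2 usable Arg1- arrays (exact permutation p = 0.2). Between post-TBI and normal monocytes the differences were -0.68, -1.02 and -0.26, where 3 against 3 allow no exact p under 0.1.

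The constitutive partners rose in brain cells against post-TBI monocytes. Psmb5 averaged 5.16 in Arg1+ cells, 4.33 in Arg1- cells and 3.22 in post-TBI monocytes, and it rose in Arg1+ cells (1.93 ± 0.31, adjusted p = 0.000135) and Arg1- cells (1.11 ± 0.31, adjusted p = 0.0113) against post-TBI monocytes. Psmb5 was lowest on post-TBI replicate 4, and without it these differences were 1.41 (adjusted p = 4.42e-05) and 0.59 (adjusted p = 0.0281). Psmb6 rose by 1.82 ± 0.24 and 1.29 ± 0.24 (adjusted p = 2.96e-05 and 0.000851), and Psmb7 by 0.95 ± 0.16 and 0.61 ± 0.19 (adjusted p = 0.000288 and 0.0228). Between Arg1+ and Arg1- cells none of the 3 was called, at 0.82 ± 0.28 (adjusted p = 0.122), 0.53 ± 0.23 and 0.34 ± 0.18, while without post-TBI replicate 4 Psmb5 had an adjusted p of 0.00486. Between post-TBI and normal monocytes Psmb5 differed by -0.20 ± 0.33, Psmb6 by 0.00 ± 0.26 and Psmb7 by 0.11 ± 0.17, none called. These averages include post-TBI replicate 4, the lowest array in Psmb5 (2.17) and Psmb6 (2.12). Psmb5 was 3.92 and 3.57 on post-TBI replicates 1 and 3, above the normal arrays at 3.39, 3.51 and 3.36. Psmb6 was 3.32 and 2.64 on them, against 2.78, 2.59 and 2.70. How much each subunit gave to the pair differences between the blood groups was not tested.

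Subunits of the 19S proteasome cap rose in brain cells against post-TBI monocytes, where few class I members were called. In Arg1+ cells against post-TBI monocytes 0 of 9 members were called, where 39.9% of all genes were (19.9% higher and 20% lower), and 1 of 9 passed at an unadjusted p under 0.05, against 47.2% of all genes. The median member difference was -0.05, beside -0.03 for all genes. In Arg1- cells B2m was the 1 of 9 called, the median was 0.26, beside -0.02, and 2 of 9 passed unadjusted, against 42% of all genes. Of the 19S cap, 16 of 17 subunits rose in Arg1+ cells (median 1.00) and 14 of 17 in Arg1- cells (median 0.68), where 19.9% and 17% of all genes were called higher. Psmd1 rose by 1.93 ± 0.22 in Arg1+ and 1.51 ± 0.22 in Arg1- cells, and Psmc5 by 1.77 ± 0.34 and 1.80 ± 0.34.

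Of 13 constitutive 20S core subunits, 8 rose and 1 fell in Arg1+ cells (Psma7, -0.72 ± 0.20) and 4 rose in Arg1- cells, where 39.9% and 33.4% of all genes were called. Of the immunoproteasome activator PA28, Psme1 differed by -0.22 and 0.03 and Psme2 by 0.24 and 0.58 against post-TBI monocytes, none called. Of 9 activators and assembly factors, 2 rose and 1 fell in Arg1+ cells and 1 rose in Arg1- cells, shares below those of all genes, the assembly chaperone Psmg1 among the higher in both (0.96 ± 0.23 and 1.04 ± 0.23). Without post-TBI replicate 4 the 19S counts were 15 and 10 and the 20S counts 6 rising and 1 falling for Arg1+ and 4 rising for Arg1-. The activators and assembly factors then had 1 rising and 1 falling in each brain group. Between Arg1+ and Arg1- cells limma called 0 of the 17 and 0 of the 13, with 6 and 4 higher at an unadjusted p under 0.05.

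Other proteins that trim and load class I peptides split in the same contrast. Of 12 tested, 7 rose and 2 fell in Arg1+ cells, and 5 rose and 2 fell in Arg1- cells, where 39.9% and 33.4% of all genes were called. Without post-TBI replicate 4, 5 rose in Arg1+ cells, and the other counts were the same. The chaperones of class I folding rose: Calr by 1.59 ± 0.19 and 1.30 ± 0.21 and Canx by 0.97 ± 0.23 and 1.03 ± 0.23, as did the cytosolic aminopeptidase Npepps, by 1.77 ± 0.27 and 1.54 ± 0.27. Tapbpl, the tapasin-like peptide editor, fell (-1.09 ± 0.21 and -0.85 ± 0.21), as did the peptidase Tpp2 (-0.95 ± 0.19 and -0.82 ± 0.19). Erap1, which trims peptides inside the endoplasmic reticulum, was at -0.27 ± 0.21 and -0.13 ± 0.21, not called. Between Arg1+ and Arg1- cells limma called 0 of the 12 (median 0.01), with 1 at an unadjusted p under 0.05.

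Among 11 nonclassical and class I-like genes, Cd1d1, which presents lipids to NKT cells, was the 1 called between the brain groups, higher in Arg1+ cells by 1.04 ± 0.27 (adjusted p = 0.0348). Against post-TBI monocytes it rose in Arg1+ cells (1.53 ± 0.29), while Hfe, a class I-like regulator of iron uptake, fell in Arg1+ (-2.79 ± 0.26) and Arg1- cells (-2.74 ± 0.26). Fcgrt, the neonatal Fc receptor heavy chain, which also pairs with B2m, fell in Arg1+ cells (-1.57 ± 0.41), and without post-TBI replicate 4 also in Arg1- cells (-1.68, adjusted p = 0.000901, against -1.03 ± 0.41 with it). H2-M3 (-0.94 ± 0.24) and Mr1 (-0.83 ± 0.25), presenters of bacterial peptides and vitamin metabolites, fell in Arg1- cells, the second not called without post-TBI replicate 4 (adjusted p = 0.0632). In post-TBI against normal monocytes H2-T24 fell by 1.43 (difference -1.43 ± 0.26, adjusted p = 0.0441), a call made neither after quantile normalization nor without post-TBI replicate 4 (adjusted p = 0.165). That is 1 of 11 called lower, where 0.041% of all genes were.

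Class II, which presents peptides to CD4 T cells, went another way. In Arg1+ against Arg1- cells 9 of 11 class II genes fell and none rose, where 2.92% of all genes were called lower, with a median of -2.42. Ciita, the master activator of class II, differed by -4.10 ± 0.30 (adjusted p = 6.03e-06) and the chain H2-Aa by -3.22 ± 0.36 (adjusted p = 0.000110). Against post-TBI monocytes 9 of 11 fell in Arg1+ cells (median -1.52), while in Arg1- cells 2 of 11 rose (H2-DMb2, 1.76 ± 0.38, and Ifi30, 0.81 ± 0.25), a share near the 17% of all genes called higher there. Without post-TBI replicate 4, 8 fell in Arg1+ cells and 3 rose in Arg1- cells. Markers of other cells moved in Arg1+ against Arg1- cells as well: 6 of 7 dendritic cell markers fell (summed level 0.770 to 1.19 in Arg1+ cells and 5.32 to 7.06 in Arg1- cells). Of 13 neutrophil markers 8 fell and 1 rose (10.9 to 21.99 and 35.4 to 146), and 2 of 10 NK cell markers fell (0.562 to 0.742 and 1.20 to 2.74). Of 8 Ly6C-low monocyte markers 4 fell and 1 rose, and of 6 Ly6C-high monocyte markers 3 fell. Of 11 microglia markers 0 were called, with 6 higher at an unadjusted p under 0.05. Kmo of the dendritic list and Elane of the neutrophil list were not well above background on any Arg1+ array, and the part of these cells in the class I and class II values was not tested.

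**Figure D4:**
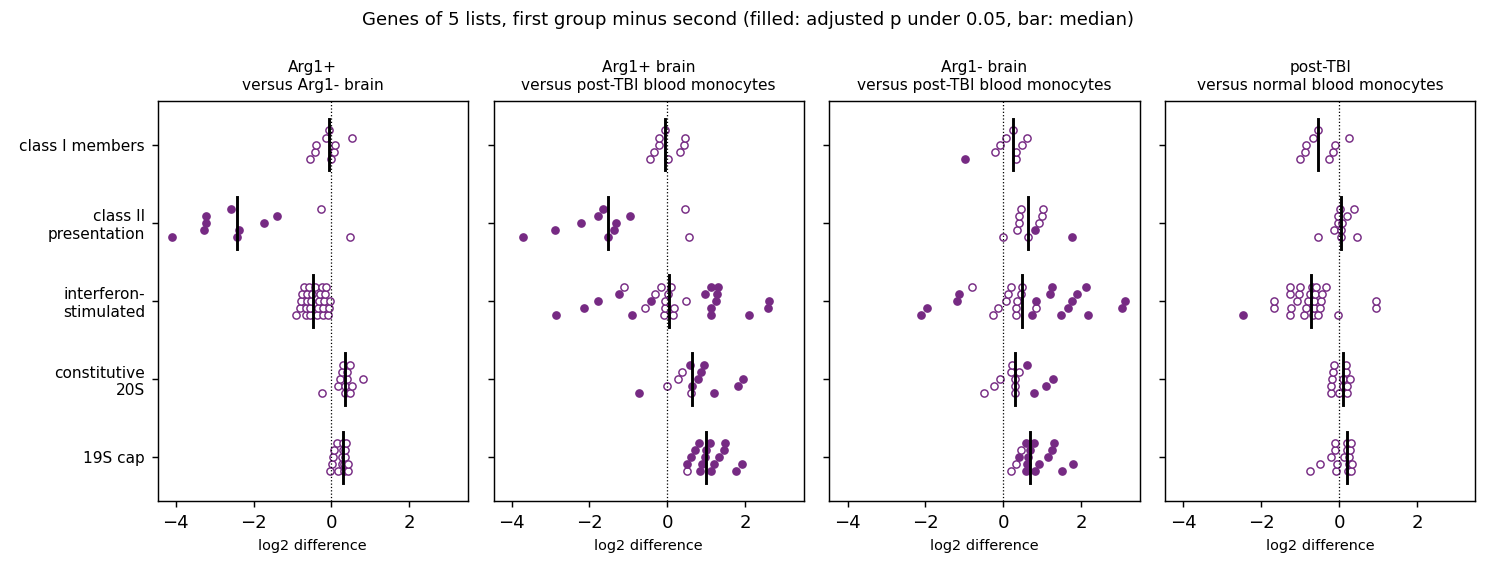
Log2 differences of the genes of 5 lists in the 4 comparisons, first-named group minus second; each circle is a gene, filled where its adjusted p is under 0.05, and the bar is the list's median. Class II genes lie far below 0 in Arg1+ cells (median -2.42 against Arg1- cells) where the class I members lie around 0, and the 19S cap lies above 0 in both brain groups against post-TBI monocytes.

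The regulators of class I genes include the interferon-induced factor Irf1 and the RFX complex, which binds the class I and class II promoters. Of 15 tested, 1 was called in Arg1+ against Arg1- cells, a share near the 5.07% of all genes called. It was Rfx5 (-1.11 ± 0.27, adjusted p = 0.0247). When post-TBI replicate 4 was left out 2 more were called higher, while the calls over all genes rose from 1113 to 1790. Irf1 averaged 1.16 in Arg1+ cells, 1.51 in Arg1- cells, 2.56 in post-TBI monocytes and 3.23 in normal monocytes. It fell in both brain groups against post-TBI monocytes (-1.40 ± 0.19, adjusted p = 2.81e-05, and -1.05 ± 0.19, adjusted p = 0.000509). Against post-TBI monocytes 2 regulators rose and 5 fell in Arg1+ cells, and 2 rose and 3 fell in Arg1- cells, near the 39.9% and 33.4% of all genes called. These were 1 and 4, and 0 and 3, without post-TBI replicate 4. Nfya, a factor of the class I and class II promoters, rose (0.81 ± 0.21 and 0.72 ± 0.21), in Arg1- cells not without that array (0.51, adjusted p = 0.0742). Nlrc5, the activator particular to class I, was not among the genes tested.

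Interferon receptors and kinases changed in both directions. Ifngr1, the ligand-binding chain of the interferon gamma receptor, fell by 2.31 in Arg1+ cells (difference -2.31 ± 0.23) and by 1.90 in Arg1- cells (-1.90 ± 0.23) against post-TBI monocytes. Its partner Ifngr2 fell as well (-0.52 ± 0.16 and -0.51 ± 0.16), as did the kinase Tyk2 (-1.02 ± 0.21 and -0.74 ± 0.21). Without post-TBI replicate 4, Ifngr2 was called in neither (-0.34, adjusted p = 0.0794, and -0.33, adjusted p = 0.105) and Tyk2 not in Arg1- cells (-0.58, adjusted p = 0.0605). Jak2, the kinase bound to Ifngr2, was lower in Arg1+ than in Arg1- cells (-1.02 ± 0.16, adjusted p = 0.00189) and higher in Arg1- cells than in post-TBI monocytes (1.06 ± 0.18).

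Of 28 interferon-stimulated genes outside the class I set, 0 were called by limma in Arg1+ against Arg1- cells (median -0.46), with 10 lower at an unadjusted p under 0.05 and 1 called lower when post-TBI replicate 4 was left out. Against post-TBI monocytes 10 rose and 6 fell in Arg1+ cells, and 12 rose and 4 fell in Arg1- cells, where 19.9% and 17% of all genes were called higher and 20% and 16.4% lower. The falling counts were 4 and 2 without post-TBI replicate 4. Oasl1 (2.62 ± 0.29 and 3.05 ± 0.29), the chemokine Cxcl10 (2.58 ± 0.39 and 3.14 ± 0.39) and Isg15 (2.10 ± 0.23 and 2.19 ± 0.23) were among the higher. Isg20 (-2.87 ± 0.35 and -1.97 ± 0.35) and the guanylate-binding protein Gbp2 (-1.77 ± 0.40 and -1.14 ± 0.40) were among the lower, Gbp2 in Arg1- cells not without that array (adjusted p = 0.153). The class I members, which answer to the same cytokines, had 0 and 1 called in these contrasts. Of 4 tested myeloid receptors 2 fell in each brain group, where 20% and 16.4% of all genes were called lower. Among those that fell was Pirb, an inhibitory receptor that reads class I (-0.90 ± 0.19 in Arg1+ cells).

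In brain against blood, where 39.9% and 33.4% of all genes were called in Arg1+ and Arg1- cells, marker lists moved as well: 8 of 11 microglia markers rose and 1 fell in Arg1+ and in Arg1- cells (summed level 57.6 to 89.7 in Arg1+ cells, 48.4 to 66.8 in Arg1- cells and 23.6 to 26.3 in post-TBI monocytes). B cell markers fell, 6 of 8 in Arg1+ and 7 of 8 in Arg1- cells (2.78 to 3.26, 2.04 to 2.62 and 6.68 to 6.82), and so did 4 of 7 T cell markers in each. All 3 red cell markers fell in both (0.328 to 1.18, 0.562 to 0.938 and 65.1 to 123), as did 7 of 8 and 8 of 8 markers of Ly6C-low monocytes, a patrolling blood subset (13.5 to 18.0, 23.4 to 28.3 and 150 to 163). Of platelet markers 3 and 4 of 5 fell, and of Ly6C-high monocyte markers 5 and 4 of 6. In Arg1+ cells 5 of 7 dendritic cell markers fell and 1 rose, and in Arg1- cells 8 of 13 neutrophil markers rose and 2 fell. The part of other cells in the brain against blood values was not tested.

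In post-TBI against normal monocytes 8 of the 9 genes were lower and B2m higher (0.24 ± 0.30), with a median of -0.54 beside 0 for all genes, but limma called 0 of 9, where 0.15% of all genes were called. At an unadjusted p under 0.05, 5 of 9 passed (Psmb9, Tap1, Tap2, Psmb8 and H2-K1), against 6.5% of all genes. The arrays did not overlap for H2-D1 (2 usable arrays in each group), Tap1 and Psmb8, all lower, where 4.75% of all genes were lower without overlap. Psmb9 had log2 levels of 2.76, 2.39 and 1.16 in post-TBI monocytes and 3.21, 3.57 and 2.59 in normal monocytes. Psmb8 had 5.10, 4.98 and 3.71 in post-TBI monocytes and 5.71, 5.36 and 5.38 in normal monocytes. In both, post-TBI replicate 4 was the lowest array.

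The differences were -1.02 ± 0.34 for Psmb9 (adjusted p = 0.495), -0.88 ± 0.30 for Psmb8 (0.526), -0.84 ± 0.29 for Tap2 (0.518) and -0.66 ± 0.22 for Tap1 (0.512). Without post-TBI replicate 4 these were -0.55, -0.44, -0.42 and -0.71, H2-K1 was at -0.25 (-0.54 with it), B2m turned to -0.21 and Psmb10 to 0.13, the median was -0.42 and again none was called. Red cell and platelet markers moved in the same contrast, with 3 of 3 and 3 of 5 higher at an unadjusted p under 0.05 and none called (summed red cell level 65.1 to 123 in post-TBI and 8.16 to 70.8 in normal monocytes), and their part was not tested. The interferon-stimulated list had a median of -0.72 in the same contrast, with 1 of 28 called lower (Ifit3, -2.48 ± 0.41, adjusted p = 0.0241), where 0.041% of all genes were called lower. The median was -0.81 without replicate 4. The 19S cap (median 0.20) and the 20S core (0.09) had no gene called by limma and none at an unadjusted p under 0.05.

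Normal monocytes had the highest mean of the 4 groups for 7 of the 9 genes; the exceptions were B2m, highest in post-TBI monocytes only with replicate 4 included, and Tapbp, highest in Arg1- cells. Going down that order, most neighbouring groups overlapped. The gaps without overlap were normal monocytes above Arg1- cells for Tap2 and Psmb9, Arg1+ above Arg1- cells for B2m, and Arg1- cells above post-TBI monocytes for Tap1. Tap1, Tap2 and Psmb9 were lowest in Arg1+ cells, with means of 2.12, 0.32 and 1.76.

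The 9 genes did not vary as 1 block. Across arrays, which share the scaling and group differences, Pearson's r was 0.857 between Tap2 and Psmb9, 0.828 between H2-K1 and Psmb8 and 0.845 between H2-D1 and B2m (11 arrays), and -0.523 between B2m and Psmb8 (14 arrays unless stated). Post-TBI replicate 4 was the highest array in B2m (6.75) and the lowest in Psmb8 (3.71), H2-K1 (6.04), Tap2 (-0.47) and Psmb9 (1.16). The r values without it were not computed, so the sign for B2m and Psmb8 may rest on that array. The 11 arrays with H2-D1 do not include it. Tap1 and Psmb9, whose promoter windows overlap, had an r of 0.601 over 13 arrays, and 0.131 once group means were removed. With the mean standardised level of the set, r was highest for Psmb9 (0.908), Tap2 (0.849) and Psmb8 (0.828) and near 0 for Tapbp (-0.06) and B2m (-0.14). The genes outside the set most like that mean were Trex1 (r = 0.910, 13 arrays), Nmi (0.887), Uqcrh (0.873), Peli1 (0.862), Slfn1 (0.845), Tmem50b (0.843), Pgm3 (0.840) and Ifi27l2a (0.836). These values describe 14 arrays at most, include post-TBI replicate 4 where its spot was usable, and carry no test.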

How the data were processed

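Per the file headers, the deposited array files give spot intensity values from Feature Extraction 10.7.3.1 for each one-colour array; the processed intensity is background-subtracted and not scaled between arrays. A deposited table holds the authors' log2 values; the submitters' processing notes name limma, and the remaining steps are not given in the sources used here. Here each array's processed intensity was divided by its 75th percentile over non-control spots, raised to 0.05 where lower and log2 transformed. Spots marked as non-uniform or population outliers were set aside. Of 41174 probes, 27609 had at least 2 usable arrays in each group and were well above background on at least 3 of 14; 24844 of all probes had a symbol through their RefSeq accession. The brightest kept probe stood for a gene, leaving 21969 genes, 12965 with a symbol.

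All 14 arrays entered 1 limma fit (version 3.58.1, R 4.3.3; lmFit and eBayes with trend, two-sided) on the 4 groups. Adjusted p-values are Benjamini-Hochberg values over all genes per comparison, or over all kept probes where single probes are named, and a gene was called under 0.05. Values after ± are SEs unless SD is stated. The fit was checked on simulated data. With 3 or 4 arrays per group, their number limits the precision.

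The 9 members and the gene lists were chosen with earlier results of these data known. Named genes are the members, others drawn from up to 4 called genes per list, direction and comparison with the largest differences, from Psmb5, Psmb6, Psmb7, Nlrc5 and Irf1, and the 8 genes most like the members' mean; Cxcl9, Gbp3, Socs1 and Lilra5 qualified but were not well above background in a whole group and are given no value. Psme1, Psme2 and Erap1 were named after their values were seen. The mean spot intensity was not in the files, so the normexp alternative used the median one. One gene that the rule names is not reported here.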

Additional observations from a re-analysis of the deposited data

Results flagged for a closer look

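Within groups of 4 arrays, 1 array lay far from the rest in 2 of 32 cases tested, where chance gives about 1 in 20 groups. Both were replicate 3 of the Arg1+ cells. H2-D1 was at a log2 level of 7.78 there and between 7.54 and 7.56 on the other Arg1+ arrays. Psmb9 was at 1.92 there and between 1.68 and 1.72 on the others.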

How the results depend on the processing

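For all genes, leaving out 1 array gave 602 to 1790 calls for Arg1+ against Arg1- cells (1113 with all arrays) and 2 to 60 for post-TBI against normal monocytes (33), the highest counts without post-TBI replicates 4 and 1. The blood comparison had 15 calls with normexp background, 20 in the authors' deposited values, 2 with a replicate block and 0 with only the groups compared. Members called with 1 array left out numbered 0 to 1 for Arg1+ against Arg1- cells, 0 to 2 and 1 to 3 for Arg1+ and Arg1- cells against post-TBI monocytes, and 0 to 1 for post-TBI against normal monocytes. Against post-TBI monocytes, Arg1+ cells had 1 member called with normexp, 1 in the authors' values and 2 with the 10-spot probes; Arg1- cells had 0 with only the groups compared and 2 with the 10-spot probes. Reversed values were H2-K1 on its 10-spot probe (-0.90 in Arg1+ and -0.82 in Arg1- cells) and H2-D1 in Arg1+ cells with normexp (-0.58) and in the authors' values (-0.49); the uncalled H2-K1 value in Arg1+ cells also turned, to -0.20 with quantile normalization or normexp, -0.26 in the authors' values and -0.25 as the mean of its probes, the last turning Arg1- cells too (-0.31). The cause was not tested. Without post-TBI replicate 1, Tap2 was called in post-TBI against normal monocytes (-1.25, adjusted p = 0.0378).

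The pair differences ranged from -1.06 to -0.91 for Psmb8 minus Psmb5 and from -1.02 to -0.84 for Psmb9 minus Psmb6 with 1 array left out; adjusted exact permutation p-values reached 0.0857, since 3 against 4 arrays allow none as low. With the replicate block, calls over all genes were 835, 8091, 6562 and 2 in the order of comparisons used above, against 1113, 8765, 7337 and 33 without it. Same-numbered Arg1+ and Arg1- arrays correlated at -0.46 to 0.40 in their deviations. Same-numbered post-TBI and normal arrays correlated at 0.21 and 0.35, and brain and post-TBI arrays at -0.22 to -0.09. So few arrays cannot settle whether the numbers pair samples. With the slide as a block the calls over all genes were 1502, 9885, 8131 and 32. Arg1+ and Arg1- arrays on the same slide correlated at 0.04 to 0.59 in their deviations. Scan and slide were identical, so the scan was not run apart. The 10-spot probes and the spots set aside were tried after seeing the data. Every usable spot of the members was well above background. The groups had 3 or 4 arrays, and the part of that number in the member calls was not tested.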
